A study of Rattus norvegicus with 28 samples.

Results

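The genes described here code for Wnt, BMP (bone morphogenetic protein), TGF-beta and FGF (fibroblast growth factor) ligands, their receptors and their secreted inhibitors in the rat spinal cord after traumatic spinal cord injury (SCI). They were chosen by a rule on gene names, with earlier results of these data known. A gene entered when its symbol in the array annotation began with Wnt, Fzd, Bmp, Fgf, Gdf, Tgfb, Sfrp or Dkk, followed, except after Tgfb, by a digit or, for Bmp and Fgf, an r. This gave 91 of the 35469 gene names on the array, measured by 119 probes. The 91 members comprised 18 Wnt ligands, 7 Frizzled receptors, 4 secreted Frizzled-related proteins, 3 Dickkopf proteins, 3 TGF-beta ligands, 3 TGF-beta receptors, 16 BMP and GDF ligands, 3 BMP receptors, 22 FGF genes, 5 FGF receptors and 7 genes that match the rule by name without being ligands, receptors or inhibitors of these families. The 22 FGF genes include the 4 FGF homologous factors, which stay inside the cell and are not secreted ligands.

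RNA came from adult female Sprague Dawley rats, with 4 animals and 4 single-dye arrays in each of 7 groups. T0 animals carried no contusion. The labels call them sham, and the study's methods call them uninjured. T1, T2, T4 and T8 animals received a severe contusion of 250 kdyn at the level of the eighth thoracic vertebra and were sacrificed 1, 2, 4 and 8 weeks later. T1_NPC animals had neural progenitor cells (NPCs) injected into the cord right after the contusion and were sacrificed at 1 week. T2_NPC animals had NPCs injected 1 week after the contusion and were sacrificed at 2 weeks. The NPCs were themselves grown from cords of adult rats injured beforehand, in medium holding EGF and basic FGF, which is the product of Fgf2, a member of the set. Transplanted animals received the immunosuppressant FK-506 (tacrolimus) from the day before transplantation to the end. The study's methods name it in the care of all animals, with that timing, so whether injured controls received it is unclear. By those methods injured controls were injected with medium without cells. A piece of cord 1.5 cm long around the epicentre was taken without separating cell types, so the arrays cannot tell fewer cells of a type from less RNA per cell.

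Wnt ligands are secreted lipid-modified proteins that bind Frizzled receptors, and secreted Frizzled-related and Dickkopf proteins hold them or their coreceptors in check. TGF-beta, BMP and GDF ligands form one superfamily, which signals through paired type I and type II serine/threonine kinase receptors to Smad proteins. Most FGFs are secreted and act on receptor tyrosine kinases, whereas the FGF homologous factors stay inside the cell, where they bind voltage-gated sodium channels of neurons. All of these families pattern the developing cord, and in the injured cord TGF-beta and BMP signals are best known for their part in the glial and fibrotic scar.

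Values are log2 intensities from the table that the authors normalized between arrays, and a difference of 1 is a doubling. Differences carry the standard error of one limma fit over all 28 arrays, and a gene counted as a differentially expressed gene (DEG), or as called, when its adjusted p was under 0.05 (Benjamini-Hochberg, over all 35469 gene names). On 60 members the signal was well above background on all 28 arrays, on 10 members on none, and on 21 on some. Between 74.5% and 82.7% of spots were well above background per array. Scanner outputs were also deposited, and for 16 of 28 arrays their rank order matched the value table column of another sample than the one they were deposited with. The value table was followed, and when the scanner outputs were used under their deposited samples, no member was called at any time against T0. One array stood apart, T1_NPC replicate 2, whose median absolute log2 distance from the rest of its group was 0.376 against 0.124 to 0.263 for the other 27 arrays.

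Marker genes of cell types moved with injury in the same arrays. The summed log2 level of 6 neuron markers was 18.03 to 18.44 at T0, 16.16 to 17.10 at T1 and 16.18 to 16.79 at T8, and all 6 fell at both times. The 6 microglia and macrophage markers all rose, from 14.48 to 14.74 at T0 to 17.29 to 17.52 at T1 and 16.75 to 16.99 at T8. The 6 fibroblast markers also all rose, from 12.43 to 13 at T0 to 16.92 to 17.78 at T1 and 15.97 to 16.80 at T8. The 5 Schwann cell markers on the array rose in their sum from 10.34 to 10.69 at T0 over 12.40 to 13.37 at T1 and 13.59 to 14.39 at T2 to 14.33 to 14.93 at T4, with 14.45 to 15.15 at T8. No marker of these 4 lists was below background on all arrays of a group. The part of these shifts in the changes below was not tested.

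At T1, 48 of the 91 members were called against T0, 52.7% of them, where 44.1% of all gene names were called. Of these 48, 30 rose (33% of members against 19.1% of all gene names) and 18 fell (19.8% against 25.1%). At T2 the call fell on 45 members (40% of all gene names), of which 34 were higher (37.4% against 17.7%) and 11 lower (12.1% against 22.2%). At T4 it fell on 49 (38.5% of all gene names), 32 higher (35.2% against 17.5%) and 17 lower (18.7% against 21%). At T8 it fell on 51 (39.7% of all gene names), 36 higher (39.6% against 18.2%) and 15 lower (16.5% against 21.5%). The median log2 difference of members was 0.05, 0.15, 0.21 and 0.38 at T1, T2, T4 and T8, and that of all gene names was -0.10, -0.05, -0.06 and -0.04. The members leaned to higher values, and their called share was somewhat above that of all gene names. The 4 arrays of each group did not overlap with those of T0 for 46, 41, 47 and 49 members, against 41.1%, 37%, 37.5% and 38.6% of all gene names. Over the 4 times, 23 members were called higher each time (background 12.3%), 10 were called lower each time (background 15.9%), 61 were called at least once (background 55.1%), 30 were never called, and no member was called in opposite directions. Within either scan session that held the time course the called members had the same direction, but these arrays also entered the calls, and session 1 held a single T1 and a single T4 array.

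**Figure D1:**
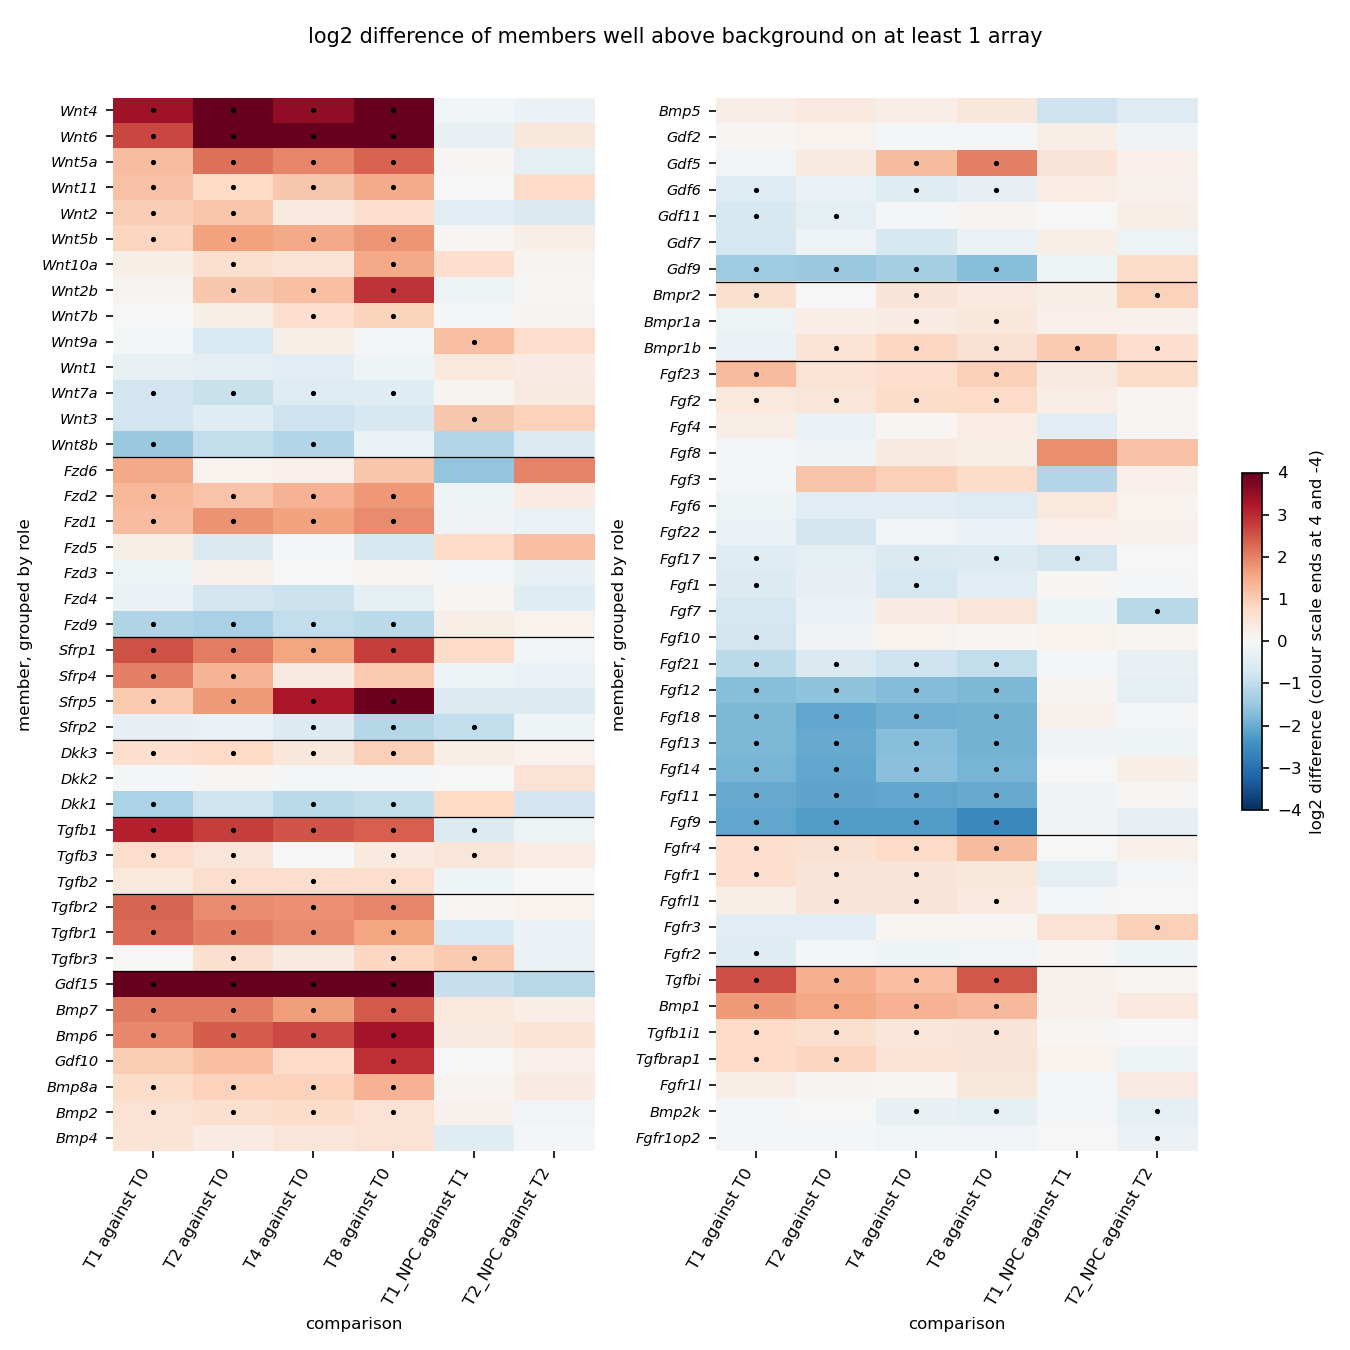
log2 differences of the 81 members well above background on at least 1 array, in 6 comparisons (columns), with members grouped by role (rows, separated by lines). Red is higher and blue lower in the first-named group, dots mark adjusted p under 0.05, and colours end at 4 and -4. Red dominates among the TGF-beta and BMP families and blue among the FGF genes in the columns against T0, and the transplantation columns hold few dots.

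All 6 TGF-beta ligands and receptors were called at T8, each of them higher than at T0, and 4 of the 6 already at T1. Of all gene names 18.2% were called higher at T8 and 19.1% at T1. Tgfb1 codes for the TGF-beta ligand most studied in wound healing and scarring, and its transcript was measured by a probe on rat chromosome 1 (rn4 chr1:80910123-80910182, plus strand), shown because the largest change of a TGF-beta ligand rests on it:
Tgfb1: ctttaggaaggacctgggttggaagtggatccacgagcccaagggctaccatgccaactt
Tgfb1 read 7.18, 6.89, 7.13 and 7.09 on the T0 arrays and 10.24, 10.37, 9.72 and 10.44 at T1. At T2 the arrays gave 9.57, 9.80, 9.99 and 10.02, at T4 they gave 9.63, 9.62, 9.45 and 9.64, and at T8 they gave 9.39, 9.47, 9.45 and 9.55. All 16 injured arrays lay above all T0 arrays, and the T8 arrays all lay below the T1 arrays. The rise was 3.12 ± 0.18 (SE) at T1, or 8.68-fold, with an adjusted p of 2.02e-12 from limma, and 2.39 ± 0.18, or 5.25-fold, at T8.

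The type I receptor gene Tgfbr1 read 6.64 to 6.87 at T0 and 8.91, 8.96, 8.91 and 9.13 at T1. By T8 it read 8.32, 8.38, 8.31 and 8.16, still 1.57 ± 0.30 above T0, with T2 and T4 arrays between 8.46 and 8.94. In T1_NPC it read 9.19, 6.75, 8.67 and 8.90, so that replicate 2, the array that stands apart, lay inside the T0 range. The type II receptor gene Tgfbr2, whose product binds the ligand first and phosphorylates the type I receptor, read 6.35, 6.52, 6.26 and 6.75 at T0 and 8.72, 9.07, 8.44 and 8.95 at T1. It rose by 2.32 ± 0.16 at T1 (adjusted p 5.88e-11) and was 1.95 ± 0.16 above T0 at T8, where its arrays read 8.49, 8.35, 8.29 and 8.54. For both receptors no injured array without NPCs reached down into the T0 range. Tgfbr3 codes for betaglycan, a coreceptor that presents TGF-beta to the other receptors. It read 5.92, 6.23, 6.02 and 6.44 at T0 and 6.05, 6.34, 6.22 and 6.07 at T1, with overlapping groups, 7.36, 6.11, 6.74 and 6.94 at T2, with 1 array inside the T0 range, and 6.77, 6.97, 7.04 and 7.17 at T8, above every T0 array (0.83 ± 0.21, adjusted p 0.00222).

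The other 2 ligands changed less. Tgfb2 read 8.10, 8.10, 7.63 and 7.83 at T0, 8.16, 8.61, 8.35 and 8.16 at T1 and 8.56, 8.72, 8.59 and 8.57 at T8. Its T2 arrays ran from 8.26 to 9.03 and its T4 arrays from 8.45 to 8.79. Its difference of 0.41 at T1 did not pass the test, and the rises of 0.70, 0.71 and 0.70 at T2, T4 and T8 did. Tgfb3 read 9.86, 9.87, 9.67 and 9.98 at T0, 10.50, 10.75, 10.44 and 10.53 at T1 and 10.02, 9.76, 9.67 and 9.89 at T4. It was higher at T1 (0.71 ± 0.11), T2 (0.47) and T8 (0.38), while at T4 its arrays overlapped with T0 at a difference of -0.01.

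**Figure D2:**
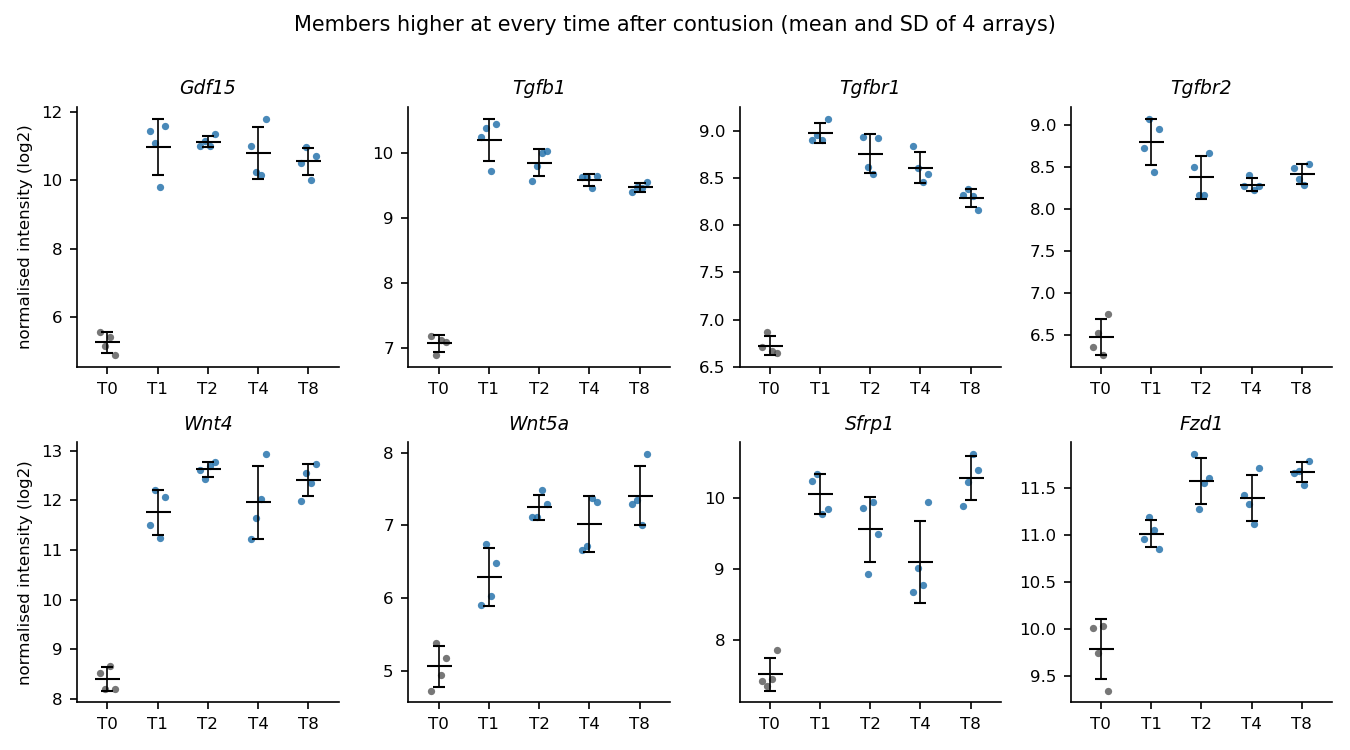
Normalised log2 intensity of 8 members in the time course. Points are arrays (grey T0, blue injured), and bars give the mean and SD of 4 arrays, on axes that do not start at 0. The injured points lie above the T0 points in each panel, by about 5 log2 units in Gdf15 and by 1 to 4 in the others.

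Among the 16 BMP and GDF ligands, 5 rose and 3 fell at T1 (median difference 0.25), so 50% were called where 44.1% of all gene names were. At T8, 8 rose and 2 fell (median 0.58), or 62.5% against 39.7%. Gdf15 codes for a distant member of the superfamily, a circulating cytokine that cells release under stress. The probe behind it (rn4 chr16:19313390-19313449, plus strand) is shown because it carries the largest rise of any member at T1, T2 and T4:
Gdf15: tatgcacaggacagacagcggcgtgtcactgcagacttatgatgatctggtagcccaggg
Gdf15 read 5.56, 5.15, 5.42 and 4.87 at T0, 11.44, 11.10, 9.79 and 11.58 at T1, and 11.01, 11.15, 11 and 11.35 at T2. At T4 it read 11.01, 10.25, 10.16 and 11.80, and at T8 10.52, 10.96, 10.01 and 10.71. The lowest injured array thus stood over 4 log2 units above the highest T0 array. The rise was 5.73 ± 0.38 at T1, or 52.9-fold (adjusted p 1.94e-11 in limma), and 5.30 ± 0.38 at T8, or 39.4-fold.

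Bmp6 and Bmp7 code for closely related BMPs, and both were higher at all 4 times. Bmp7 read 7.34, 7.39, 7.30 and 7.43 at T0 and 9.17, 9.92, 9.26 and 9.43 at T1, a rise of 2.08 ± 0.25, and it stood 2.46 ± 0.25 above T0 at T8. Bmp6 read 6.06, 6.96, 6.19 and 7.41 at T0, 7.67, 9.23, 8.53 and 8.88 at T1, and 10.16, 9.38, 10.75 and 9.69 at T8. Its differences from T0 were 1.92, 2.42, 2.65 and 3.34 (± 0.41) at the 4 times. Bmp2 and Bmp8a were called each time with smaller rises, of 0.57 to 0.73 and of 0.74 to 1.38. Their arrays overlapped with T0 at T1. Bmp4, the BMP that patterns the dorsal cord in the embryo, was called at no time.

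Some growth and differentiation factors rose late. Gdf5, known from joint and skeletal development, read 6.33, 6.29, 6.29 and 6.22 at T0 and 6.26, 6.16, 5.97 and 6.35 at T1. It read 7.29, 7.44, 8.14 and 7.32 at T4 and 8.10, 8.25, 8.49 and 8.31 at T8, where it was 2.00 ± 0.22 above T0. Gdf10 was called only at T8 (2.93 ± 0.53), with arrays at 10.52, 10.62, 11.99 and 10.84 against 8.25, 8.22, 7.53 and 8.27 at T0. Between those times it was scattered, with 7.84 on one T2 array and 9.55 to 9.90 on the other three. Gdf9, best known from the oocyte, fell at all 4 times (by 1.43 at T1 and 1.70 at T8), while Gdf11 fell at T1 and T2 by 0.64 and 0.35. Gdf6 fell at T1, T4 and T8 by 0.53, 0.47 and 0.34. Bmp3 and Bmp15 were well above background on no array. Bmp15 was nevertheless called at T8, a call without a measurable level on either side, for which no fold is given.

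The 3 BMP receptor genes moved little with injury. The type I receptor gene Bmpr1b read 6.04, 6.10, 6.03 and 6.12 at T0, and 3 of its 4 T1 arrays lay lower, at 5.76, 5.45 and 5.77, with the last at 6.20. It was called higher at T2, T4 and T8 (0.54, 0.83 and 0.62). Bmpr1a, the other type I receptor gene, was called higher at T4 and T8 (0.34 and 0.45). Bmpr2, the type II receptor gene, was called at both T1 (0.65) and T4 (0.51), but only 1 of its 2 probes changed (1.24 against 0.06 at T1). T0 replicate 3 read 7.03 and the other T0 arrays 7.91 to 8.05, and without it Bmpr2 differed by 0.41 at T1 and 0.27 at T4 and was not called at either time.

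Of the 18 Wnt ligands, 6 rose and 2 fell at T1, 8 rose and 1 fell at T2, 7 rose and 2 fell at T4, and 8 rose and 1 fell at T8. Among all gene names 19.1% rose and 25.1% fell at T1, and 17.7% and 22.2% at T2. At T4 these shares were 17.5% and 21%, and at T8 18.2% and 21.5%. The called share of Wnt ligands at T1 was close to the 44.1% of all gene names. The largest changes among the Wnt ligands were those of Wnt4 and Wnt6. Both probes lie on the plus strand, Wnt4 at rn4 chr5:156082786-156082845 and Wnt6 at chr9:74115321-74115380, and are shown because the leading Wnt changes rest on 1 probe each:
Wnt4: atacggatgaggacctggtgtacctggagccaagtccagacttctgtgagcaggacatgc
Wnt6: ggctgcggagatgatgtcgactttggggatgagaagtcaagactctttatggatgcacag
Wnt4, which acts in kidney and gonad development and in the cord's floor plate, read 8.53, 8.21, 8.67 and 8.21 at T0 and 11.51, 12.20, 11.25 and 12.06 at T1. At T2 the values were 12.60, 12.42, 12.70 and 12.77, at T4 they were 11.23, 11.64, 12.03 and 12.93, and at T8 they were 11.99, 12.55, 12.34 and 12.74. All T2 arrays lay above all T1 arrays, while the T4 and T8 arrays overlapped with both. The rise was 3.35 ± 0.38 at T1 (10.2-fold, adjusted p 1.93e-07) and 4.00 ± 0.38 at T8 (16-fold).

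Wnt6 kept climbing. It read 3.34, 4.93, 4.12 and 5.42 at T0, where only 2 of the 4 arrays were well above background, and 6.17, 7.75, 7.67 and 6.91 at T1. The T2 arrays gave 9.26, 7.64, 8.21 and 8.94, the T4 arrays gave 9.21, 9.23, 8.55 and 9.26, and the T8 arrays gave 10.56, 9.80, 10.75 and 10.46. Every T8 array lay above every array of the earlier groups. The differences from T0 were 2.67, 4.06, 4.61 and 5.94 (± 0.49), the last with an adjusted p of 1.66e-09, all against a T0 group in which 2 of 4 arrays were dim. Within the scan sessions they were 2.43 (a single T1 array) and 2.27 at T1 and 6.40 and 5.48 at T8.

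Wnt5a, a ligand best known for signalling without beta-catenin, read 4.73, 5.39, 4.95 and 5.18 at T0 and 5.90, 6.74, 6.03 and 6.49 at T1. It read 7.12, 7.11, 7.48 and 7.29 at T2 and 7.30, 7.35, 7.01 and 7.98 at T8, so that all T2 and T8 arrays lay above all T1 arrays. Its differences were 1.23 ± 0.22 at T1 and 2.35 ± 0.22 at T8. Its close relative Wnt5b rose by 0.86 at T1, with overlapping arrays, and by 1.77 at T8, and Wnt11 rose by 1.16 and 1.47. Wnt2b was called at T2, T4 and T8 but read 9.90, 10.03, 10.07 and 10.48 at T8 against 7.10, 7.16, 7.27 and 7.42 at T0 (2.88 ± 0.42). At T1 its arrays ran from 6.44 to 8.48, on both sides of T0. Wnt10a and Wnt7b also had their largest rises at T8 (1.51 and 0.90).

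Wnt7a, which guides blood vessels into the developing cord together with Wnt7b, was the only Wnt ligand lower at all 4 times. It fell by 0.77, 0.89, 0.53 and 0.48, and at T4 and T8 its arrays overlapped with T0. Wnt8b was well above background on 2 of 4 T0 arrays and on none at T1 or T4, and was at least 2.23-fold lower at T1 (adjusted p 0.00453). Wnt3a, Wnt8a, Wnt9b and Wnt10b were well above background on no array, and Wnt1, Wnt3 and Wnt9a were not called against T0 at any time.

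The 2 probes of Wnt2 did not move together, and both are shown for that reason. The first spans an intron in the genome (rn4 chr4:43687315-43689474, minus strand, 2160 bases), and the second lies in a single stretch (chr4:43682205-43682264, minus strand):
Wnt2 probe 1: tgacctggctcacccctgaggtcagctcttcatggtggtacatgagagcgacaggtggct
Wnt2 probe 2: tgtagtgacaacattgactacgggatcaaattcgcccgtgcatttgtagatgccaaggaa
Probe 1 differed from T0 by -0.06, -0.22, -0.42 and -0.50 at T1, T2, T4 and T8, and probe 2 by 2.05, 2.44, 1.18 and 1.84. The mean of both gave Wnt2 a called rise of 0.99 at T1 and 1.11 at T2, which therefore belongs to the second probe alone. Of the 21 members with 2 or more probes, all probes of a gene had the same direction in 17 at T1 and in 17 at T8, but in only 13 in T1_NPC against T1 and 11 in T2_NPC against T2.

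The windows around the starts of Wnt4 and Wnt6 are shown because these genes carry the leading Wnt changes. They run from 250 bases before the RefSeq start to 50 after it, in assembly GRCr8 (chr5:154797200-154797499 and chr9:83778302-83778601, plus strand), and capitals mark the GC box GGGCGG, the core bound by Sp1-type factors, on either strand, overlaps included:
Wnt4: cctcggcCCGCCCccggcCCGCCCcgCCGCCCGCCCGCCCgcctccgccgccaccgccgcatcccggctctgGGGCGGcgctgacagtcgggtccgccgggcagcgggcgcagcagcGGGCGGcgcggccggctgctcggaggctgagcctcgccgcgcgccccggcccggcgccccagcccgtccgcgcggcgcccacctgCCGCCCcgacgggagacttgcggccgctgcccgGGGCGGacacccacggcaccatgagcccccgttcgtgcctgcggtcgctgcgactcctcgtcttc
Wnt6: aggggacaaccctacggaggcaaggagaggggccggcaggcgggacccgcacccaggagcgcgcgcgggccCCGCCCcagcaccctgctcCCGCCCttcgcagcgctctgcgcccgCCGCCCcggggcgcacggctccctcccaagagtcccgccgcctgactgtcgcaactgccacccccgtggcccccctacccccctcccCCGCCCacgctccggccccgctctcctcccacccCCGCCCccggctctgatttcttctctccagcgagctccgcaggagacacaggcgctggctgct
The Wnt4 window held 9 GC boxes at 83.3% G or C, and the Wnt6 window 5 at 76.3%. RefSeq windows were matched by symbol for 69 of 91 members, and 61.6% of their 73 windows held a GC box, against 33.1% of all 33469 windows. The share was 58.8% for members higher at all 4 times and 58.3% for those lower at all 4 times, so it did not separate the directions. The median G or C content was 65.0% in member windows and 51.7% in all windows. Its part in the GC box shares was not tested. The letters TATAAA were in 12.3% of member windows (14.2% of all), CTTTGAA or CTTTGAT, the TCF/LEF core, in 6.85% (8.73%), TGACTCA (AP-1) in 1.37% (4.63%) and CACGTG (E-box) in 12.3% (6.42%), both strands searched. A match describes letters in a window only.

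Among the receptors and inhibitors of Wnt, Fzd1 and Fzd2 were the Frizzled genes that rose, at every time. Fzd1 read 10.01, 9.74, 10.03 and 9.34 at T0, 10.96, 11.19, 11.05 and 10.85 at T1, and 11.66, 11.68, 11.53 and 11.79 at T8 (1.23 and 1.89 ± 0.19). Fzd2 rose by 1.34 at T1 and 1.73 at T8. Fzd9 fell at every time, from 9.81, 9.95, 9.96 and 10.29 at T0 to 8.99, 8.69, 8.70 and 8.82 at T1 (by 1.2 ± 0.2). Fzd3, Fzd4, Fzd5 and Fzd6 were not called against T0.

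The secreted Frizzled-related proteins, which bind Wnts outside the cell, diverged with time. Sfrp1 read 7.41, 7.34, 7.44 and 7.85 at T0 and 10.24, 10.34, 9.77 and 9.85 at T1, a rise of 2.54 ± 0.35 (5.82-fold), and it was 2.77 ± 0.35 above T0 at T8. Sfrp5 read 5.25, 5.01, 4.73 and 5.05 at T0, 5.75, 6.65, 5.56 and 6.34 at T1, and 9.31, 8.86, 8.99 and 8.61 at T8. Its 4 groups after T0 stood in time order with 1.06, 1.69, 3.28 and 3.93 (± 0.33), and its 2 probes gave 2.47 and 5.39 at T8. Sfrp2 instead was lower at T4 and T8, by 0.54 and 1.15, with T8 arrays at 5.35, 5.19, 5.58 and 4.80 against 6.71, 6.24, 6.13 and 6.44 at T0. Its call at T4 (adjusted p 0.0482) was lost with 75th percentile scaling, matched scanner outputs, the replicate block or trend and robust, and without 7 of the 8 single arrays. Sfrp4 was called higher at T1 and T2 (2.01 and 1.37), where a probe well above background on 1 of 28 arrays gave -0.33 at T1 and the others 3.78 and 2.57.

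Dickkopf proteins block the Lrp coreceptors of Wnt, and Dkk3 is the relative that acts differently. Dkk3 rose at all times, by 0.67 at T1 and 0.96 at T8. Dkk1 fell at T1, T4 and T8 (by 1.26, 1.07 and 0.99), and after injury it was close to background, with 1 of 4 arrays well above it at T1 and none at T4, where it was at least 2.1-fold lower. Dkk2 was not called.

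**Figure D3:**
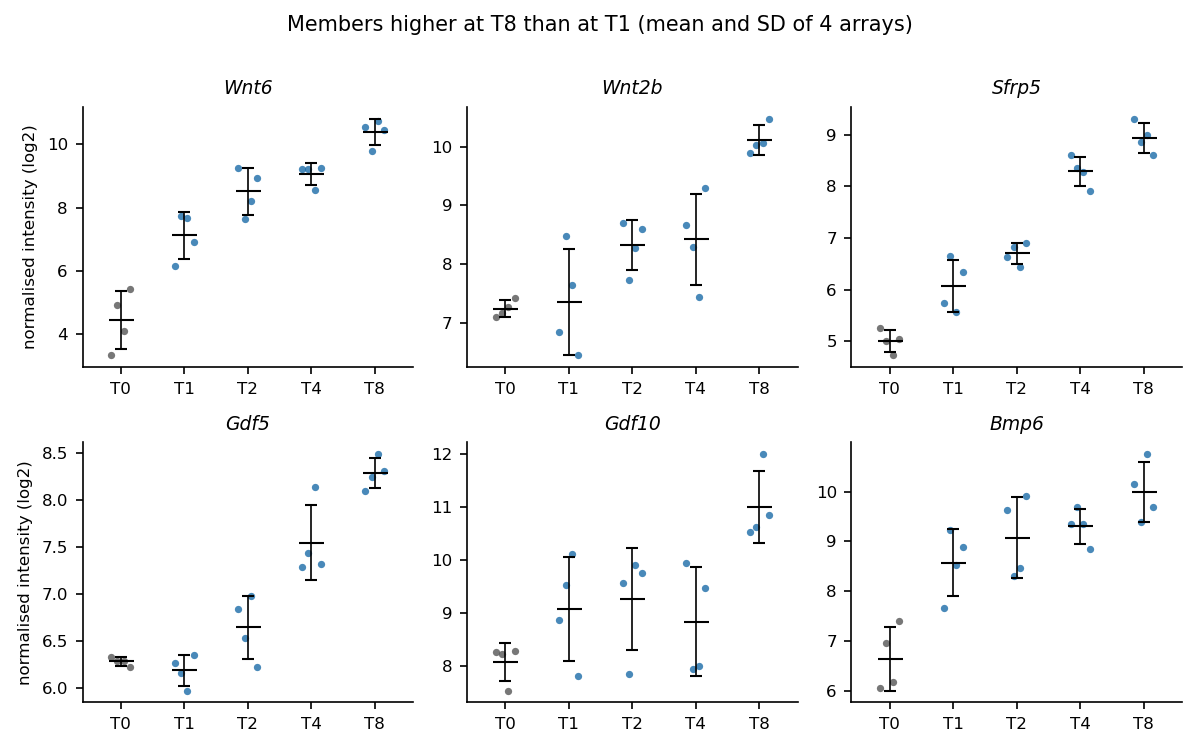
Normalised log2 intensity of 6 members that were higher at T8 than at T1. Points are arrays (grey T0, blue injured), with the mean and SD of 4 arrays. The T8 points are the highest of the time course in Wnt6, Wnt2b and Gdf10, and Gdf5 and Wnt2b show T1 points at the level of T0.

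Among the 22 FGF genes, 2 rose and 10 fell at T1, with a median difference of -0.52 (of all gene names 19.1% rose and 25.1% fell, with a median of -0.10). At T8, 2 rose and 8 fell, with a median of -0.33 (18.2% and 21.5% of all gene names, median -0.04). All 4 FGF homologous factors among them, Fgf11, Fgf12, Fgf13 and Fgf14, fell at every time (15.9% of all gene names did). The Fgf11 probe, on the minus strand of chromosome 10 (rn4 chr10:56620117-56620176), is shown as the one of this group that came nearest to background:
Fgf11: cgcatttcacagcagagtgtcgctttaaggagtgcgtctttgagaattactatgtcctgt
Fgf11 read 6.08, 5.99, 6.30 and 6.06 at T0 and 4.51, 3.64, 4.38 and 3.78 at T1. It fell by 2.03, 2.11, 2.09 and 2.02 (± 0.29) at the 4 times, with T2 arrays from 3.29 to 4.87, T4 arrays from 3.71 to 4.48 and T8 arrays from 3.93 to 4.31. Its signal was well above background on all 4 arrays at T0, T1 and T8, but on 2 of 4 at T2 and 3 of 4 at T4, so the falls at T2 and T4 are measured against partly dim groups.

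Fgf13 read 12.86, 13.26, 12.98 and 13.30 at T0, 11.36, 11.19, 11.87 and 10.76 at T1, and 11.56, 10.90, 11.31 and 11.09 at T8. Fgf14 read 7.27, 7.05, 7.03 and 7.06 at T0, 5.54, 5.11, 5.58 and 4.78 at T1, and 5.45, 5.00, 5.16 and 5.32 at T8. Fgf12 read 10.02, 9.60, 10.24 and 9.46 at T0, 8.68, 8.02, 8.27 and 7.58 at T1, and 7.94, 8.17, 7.89 and 8.07 at T8. In none of the 3 genes did an injured array reach the T0 range. The falls at T1 were 1.81 ± 0.28, 1.85 ± 0.21 and 1.69 ± 0.27 on the log2 scale, or 3.5-fold, 3.6-fold and 3.23-fold, and their adjusted p in limma ran from 1.16e-07 to 1.45e-05. The 6 neuron markers fell in the same arrays by a similar amount, with a median of their single differences of -1.68 at T1. Their part in these falls was not tested.

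The secreted ligands Fgf9 and Fgf18 fell as far. Fgf9, a mitogen of glia that neurons make, read 10.94, 10.89, 10.89 and 10.98 at T0 and 9.31, 8.59, 9.45 and 8.09 at T1. It read 8.40, 7.91, 8.55 and 8.49 at T8, 2.59 ± 0.35 below T0, or 6.02-fold (adjusted p 2.86e-06), the largest fall of any member. Fgf18 read 10.60, 10.15, 10.33 and 10.23 at T0, 9.07, 8.43, 8.99 and 7.62 at T1, and 8.40, 8.13, 8.51 and 8.75 at T8. The T0 arrays of both genes lay close together, while the T1 and T2 arrays spread over more than 1 log2 unit. Fgf21, a metabolic hormone, fell at all times (by 1.07 at T1), and Fgf1, the broadest FGF receptor ligand, fell at T1 and T4 (by 0.55 and 0.71). Fgf10 fell at T1 alone (by 0.72), and Fgf17 fell at T1, T4 and T8 by 0.49 to 0.58.

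**Figure D4:**
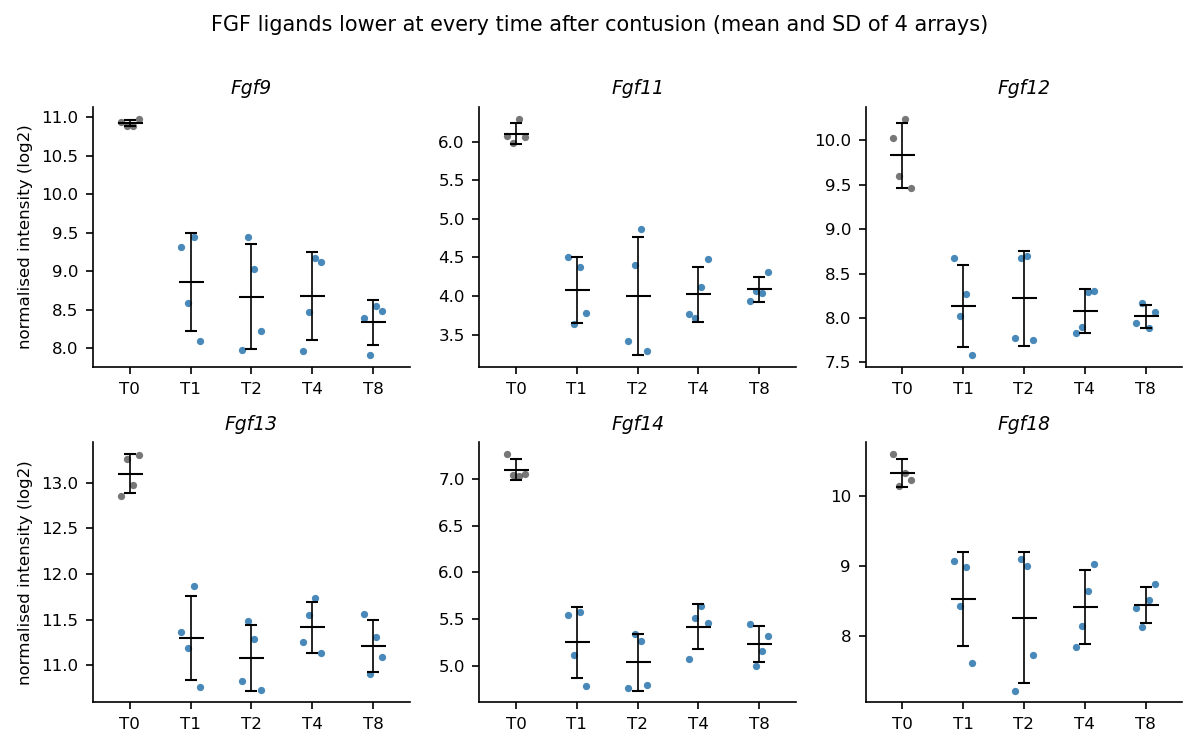
Normalised log2 intensity of the 6 FGF genes with the largest falls, 4 of them FGF homologous factors. Points are arrays (grey T0, blue injured), with the mean and SD of 4 arrays, on axes that do not start at 0. In every panel each injured point lies below each T0 point, and the T8 points lie closer together than the T2 points.

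Fgf2, basic FGF, a mitogen of astrocytes and progenitors, was the FGF ligand that rose at every time. It read 7.41, 7.42, 7.27 and 7.40 at T0, 7.90, 7.80, 7.68 and 7.82 at T1, and 8.10, 8.10, 8.17 and 8.23 at T8. The rise of 0.43 ± 0.16 at T1 and 0.78 ± 0.16 at T8 was small, but no injured array overlapped with T0. Fgf23, the phosphate hormone, was below background on all T0 arrays and well above it on all T1 arrays, at least 2.38-fold higher (adjusted p 0.000401). Fgf5, Fgf15, Fgf16 and Fgf20 were well above background on no array.

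Among the FGF receptor genes, Fgfr4 showed the largest called change against T0. Fgfr4 rose at all times (0.68 at T1 and 1.28 at T8), and Fgfr1 at T1, T2 and T4 (0.67, 0.50 and 0.50), with arrays that overlapped with T0. Fgfr2 fell at T1 by 0.50 ± 0.10 and was not called later. Fgfrl1, a receptor without a kinase domain, was called higher at T2, T4 and T8 (0.51, 0.53 and 0.38), and Fgfr3 at no time.

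Of the 7 genes included by name, 4 rose at T1, where 19.1% of all gene names rose. Tgfbi codes for a matrix protein induced by TGF-beta and read 7.60, 7.63, 7.87 and 7.87 at T0 and 10.03, 10.91, 10.17 and 10.16 at T1. It dropped to 9.31, 8.58, 9.09 and 9.72 at T2 and stood at 10.10, 9.84, 10.55 and 10.45 at T8, so its differences were 2.58, 1.43, 1.19 and 2.49 (± 0.27). Bmp1, which is a protease that trims procollagen and no BMP ligand, rose by 1.71 ± 0.23 at T1 and 1.30 at T8. Tgfb1i1, an adaptor at focal adhesions, rose at all times by 0.48 to 0.77, and Tgfbrap1, which binds TGF-beta receptors, at T1 and T2 by 0.77 and 0.86.

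Other genes of the same pathways were read from lists drawn up by role. Of 33 further Wnt pathway genes on the array, 11 rose and 10 fell at T1, with a median of 0.19, and 11 rose and 8 fell at T8. For these lists the shares of all gene names are 19.1% higher and 25.1% lower at T1, and 18.2% and 21.5% at T8. Wisp2 and Wisp1, matricellular proteins, rose by 3.57 and 2.23 at T1, and the Wnt inhibitor Wif1 and the Wnt enhancer Rspo3 fell by 1.23 and 1.17. Of 43 further BMP and TGF-beta pathway genes, 20 rose and 7 fell at T1 (median 0.22), and 22 rose and 6 fell at T8. The latent TGF-beta binding protein Ltbp2 rose by 6.16 ± 0.46, while the BMP antagonist Grem1 fell by 1.04. Of 19 further FGF pathway genes, 5 rose and 5 fell at T1 (median -0.14), and 3 rose and 5 fell at T8. Flrt2 and the feedback inhibitor Spry1 rose by 1.85 and 1.58, and its relative Spry2 and the adaptor Frs3 fell by 1.15 and 1.09.

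Between successive times few members moved. From T1 to T2, 5 members were called (5.49%), where 1.48% of all gene names were (0.815% higher and 0.665% lower). Bmpr1b rose by 0.82 ± 0.15, from 5.76, 5.45, 5.77 and 6.20 to 6.82, 6.66, 6.43 and 6.54, with no overlap (adjusted p 0.00616). Wnt5a rose by 0.96, from the T1 to the T2 values given above. Bmpr1a rose by 0.47, from 8.71, 8.71, 8.58 and 8.62 to 9.29, 9.12, 8.89 and 9.21, and Fgfr2 by 0.44, from 9.01, 9.05, 9.36 and 9.09 to 9.84, 9.52, 9.47 and 9.44. Tgfbi fell by 1.14 ± 0.27. Leaving out T2 replicate 1 kept only 1 of these calls, and Bmpr1b kept its call whichever single array was left out but lost it with normexp and in either scan session alone. From T2 to T4 and from T4 to T8 no member passed the limma test, with 14 and 16 members at an unadjusted p under 0.05, against backgrounds of 0.0761% called from T2 to T4 (0.0507% higher, 0.0254% lower) and 0.0902% from T4 to T8 (0.0874% higher, 0.00282% lower). Alternative fits called 0 to 3 and 0 to 4 members there.

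Over the whole span from T1 to T8, a comparison added after values had been seen, 19 members were called (20.9%), 17 higher and 2 lower, where 9.87% of all gene names were called (5.45% higher and 4.42% lower). The 17 were Wnt2b, Wnt5a, Wnt6, Wnt7b, Wnt10a, Fzd1, Sfrp5, Bmp6, Bmpr1a, Bmpr1b, Gdf5, Gdf10, Gdf11, Tgfbr3, Fgf7, Fgf10 and Fgfr2. The largest rises were those of Wnt6 (3.27 ± 0.49), Sfrp5 (2.87 ± 0.33), Wnt2b (2.77 ± 0.42) and Gdf5 (2.10 ± 0.22, adjusted p 5.92e-07). In these 4 genes no T8 array overlapped with T1. Sfrp2 and Tgfb1 were the 2 that were lower, by 0.83 and 0.73. Marker sums of several cell types moved without overlap over the same span. Those of Schwann cells rose as given above, the ependymal sum (4 markers) went from 12.69 to 12.99 at T1 to 13.92 to 14.20 at T8, and the astrocyte sum (6 markers) from 15.56 to 15.85 to 16.27 to 16.63. The microglia and macrophage sum and the fibroblast sum were lower at T8 than at T1, as their ranges above show. Their part in these changes was not tested. Bmp6, Fgf7, Fzd1, Gdf10 and Sfrp2 lost their calls when some single arrays were left out. With scan session 1 alone 4 members were called and with session 2 alone 14.

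NPC transplantation was compared with injury alone at the same time after SCI. Each transplanted group lay on a slide of its own in a scan session without injured controls, so transplantation and slide cannot be told apart. If injured controls went without FK-506, the cells and the drug cannot be told apart either. By the labels the T2_NPC piece came from T7 to T10 and nothing is said of the dura mater, while the other groups give T6 to T10 without dura, so in T2_NPC transplantation and dissection cannot be told apart either. Marker sums also moved without overlap. In T1_NPC the endothelial sum (6 markers) was 14.68 to 15.04 against 14.45 to 14.60 at T1, and the ependymal sum 11.52 to 12.56 against 12.69 to 12.99. In T2_NPC the oligodendrocyte sum (6 markers) was 18.30 to 18.42 against 17.89 to 18.15 at T2, and the ependymal sum 13.24 to 13.49 against 13.50 to 14.06. The part of these shifts in the differences below was not tested. In T1_NPC against T1, 9 members were called, 6 higher and 3 lower (9.89%), where 11.9% of all gene names were called (5.45% higher and 6.46% lower). In T2_NPC against T2, 6 were called, 3 higher and 3 lower (6.59%, background 9.47%, with 4.62% higher and 4.85% lower). Neither share was above the background. Against T0, 52 members were called in T1_NPC (34 higher and 18 lower), where 52.7% of all gene names were called (22.8% higher and 29.9% lower). In T2_NPC against T0 there were 54 (38 higher and 16 lower), where 47.7% of all gene names were called (21.2% higher and 26.5% lower). The difference between both transplantation effects was called for 1 member, Fgf20, whose signal was well above background on no array, where 0.299% of all gene names were called (0.127% higher and 0.172% lower).

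Bmpr1b was the only member called in both transplantation comparisons. It read 6.58, 7.36, 6.86 and 6.59 in T1_NPC, all above the T1 arrays (5.45 to 6.20), and 7.15, 7.35, 7.19 and 7.43 in T2_NPC, all above the T2 arrays (6.43 to 6.82). The differences were 1.05 ± 0.15 (adjusted p 0.000118) and 0.67 ± 0.15 (adjusted p 0.00791), and neither lost its call with any single array left out. With the slide as a random block both calls were kept. This fit cannot tell transplantation from slide, as each transplanted group lay on a slide of its own. The difference between the 2 transplantation effects was -0.38, with a 95% interval from -0.83 to 0.07.

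In the acute model, Wnt9a read 5.41, 5.39, 5.24 and 5.42 in T1_NPC against 4.31, 4.26, 4.01 and 4.08 at T1 (1.2 ± 0.26, adjusted p 0.00461). The Wnt9a signal was dim, well above background on 21 of 28 arrays. It was so on all 4 arrays in 3 of the 7 groups, T1_NPC among them. The lowest level of a probe well above background was 2.56 to 4.16 on the T1_NPC arrays and 1.76 to 2.96 on the T1 arrays. The part of this in the differences of dim genes was not tested. Tgfbr3 read 6.96, 7.47, 7.12 and 7.39 against 6.05, 6.34, 6.22 and 6.07 (1.06 ± 0.21, adjusted p 0.00184). Tgfb3 rose by 0.48 ± 0.11, to 11.09, 11.08, 11.13 and 10.82 from 10.44 to 10.75. These 3 genes showed no overlap between the groups. In the subacute model the same genes differed by 0.71, -0.22 and 0.31, with 95% intervals from 0.16 to 1.25, from -0.65 to 0.21 and from 0.07 to 0.54. None was called there, although the arrays of Wnt9a and Tgfb3 did not overlap. Fgf20 was also called in T1_NPC, where it read 2.95, 3.75, 3.63 and 3.12 against 1.41 to 2.13 at T1, but it was well above background on no array, so no fold is given.

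The 3 lower genes in T1_NPC were less separate from T1. Sfrp2 read 4.65, 4.71, 5.04 and 5.92 against 5.85 to 6.46, with 1 array inside the T1 range (lower by 0.98 ± 0.21 on the log2 scale, adjusted p 0.00436). Fgf17 was well above background on 1 T1_NPC array. Tgfb1 read 10.07, 8.91, 9.73 and 9.86 against 9.72 to 10.44, a fall of 0.55 with an adjusted p of 0.0487. That call was lost when spots marked as outliers were left out. Tgfb1 spots were so marked on T1_NPC replicates 2, 3 and 4, and not at T1. The lowest T1_NPC value is that of replicate 2, the array that stands apart. Without it the Tgfb1 call was also lost, as it was without T1 replicates 1, 2 or 4 or T1_NPC replicate 3. On T1_NPC replicate 2 the summed level of the fibroblast markers was 15.01 and of the microglia and macrophage markers 16.50, against 16.71 to 17.69 and 17.35 to 17.48 on the other T1_NPC arrays. Without it 7 members were called, 5 higher and 2 lower. Wnt3, called at an adjusted p of 0.0421, lost its call without any of 6 single arrays.

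In the subacute model, Bmpr2 read 8.57, 8.58, 8.60 and 8.86 in T2_NPC against 7.71, 7.68, 7.40 and 8.17 at T2, a rise of 0.92 ± 0.20 (adjusted p 0.00563). It came from the probe that also rose at T1 (1.73), as the other gave 0.10. Fgfr3, an FGF receptor of astrocytes and progenitors, read 8.87, 9.10, 8.86 and 8.67 against 8.13, 7.92, 7.64 and 8.06 (0.94 ± 0.25, adjusted p 0.0177). Fgf7, known as keratinocyte growth factor, read 3.45, 3.80, 4.19 and 4.27 against 5.38, 4.75, 4.82 and 5.17. It fell by 1.1 ± 0.34 with an adjusted p of 0.0437, lost its call with any 1 of the 8 arrays left out, and was well above background on 2 T2_NPC arrays. Bmp2k, a kinase induced by BMP2, read 8.77, 8.48, 8.61 and 8.64 against 8.88 to 9.23 (lower by 0.39), a fall that 1 of its 2 probes carried. Fgfr1op2, a partner of Fgfr1 in a gene fusion, read 11.89, 11.79, 11.87 and 11.91 against 12.04 to 12.15 and fell by 0.24. With the slide as a random block, Fgfr3, Fgf7, Bmp2k and Fgfr1op2 lost their calls, and so did Tgfb1 and Wnt3 in the acute model. Fgfr3 also lost its call without T2 replicate 3 or T2_NPC replicate 2.

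**Figure D5:**
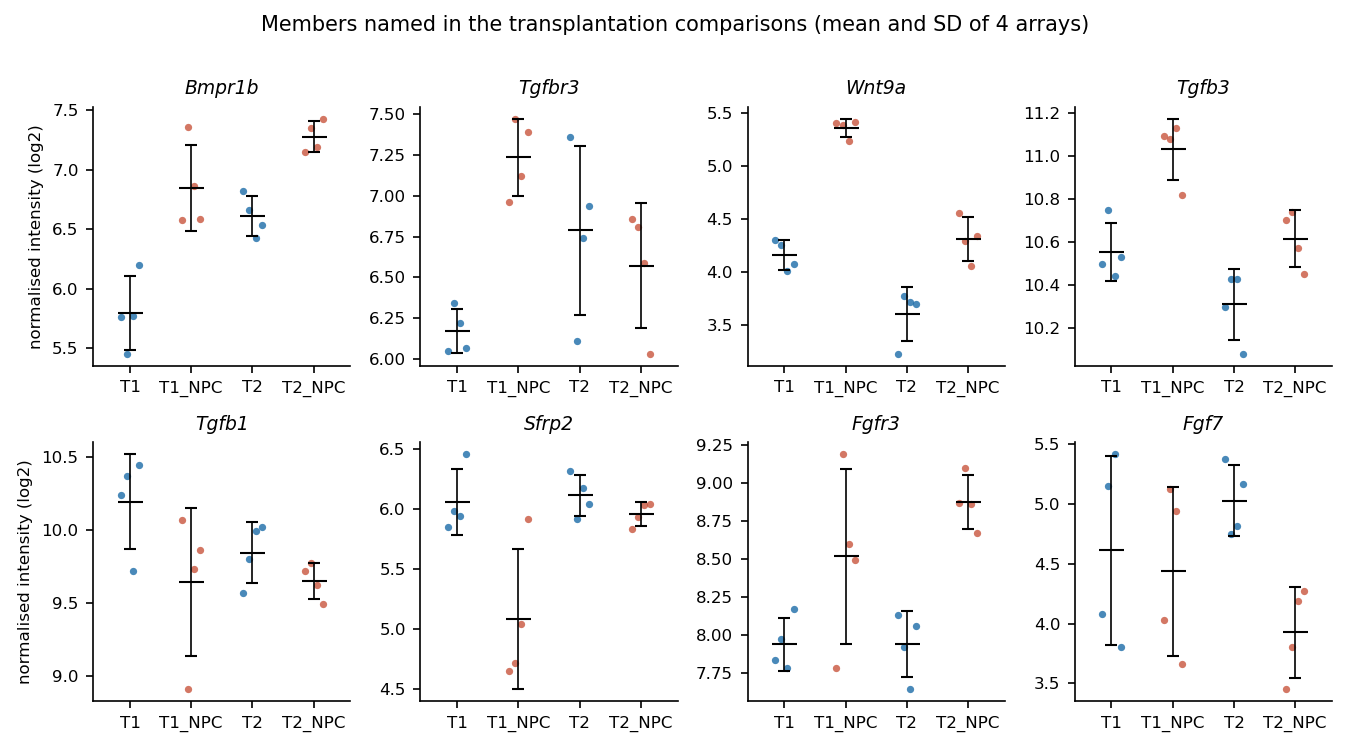
Normalised log2 intensity of 8 members named in the transplantation comparisons. Points are arrays (blue injured, red transplanted), with the mean and SD of 4 arrays, on axes that do not start at 0. Transplanted and injured points are apart at both times in Bmpr1b, Wnt9a and Tgfb3, in the acute pair alone in Tgfbr3 and in the subacute pair alone in Fgfr3 and Fgf7, while Tgfb1 and Sfrp2 overlap in both pairs.

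Gdf15, Wnt6 and Wnt4, which were among the members with the largest rises after injury, were not called after transplantation. Tgfb1, also among the largest rises at T1, was called lower in T1_NPC, with the limits given above. Gdf15 differed by -0.92 in T1_NPC (95% interval from -1.70 to -0.14, adjusted p 0.113) and by -1.12 in T2_NPC (from -1.89 to -0.34, adjusted p 0.0628). Wnt6 differed by -0.31 (from -1.33 to 0.71) and 0.44 (from -0.58 to 1.46), and Wnt4 by -0.12 (from -0.91 to 0.68) and -0.23 (from -1.02 to 0.56).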

How the data were processed

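RNA of 28 spinal cord samples was hybridised to single-dye Agilent rat arrays, whose probe positions are in genome build rn4. Per the labels the scanner software was Feature Extraction (version 10.7.1.1 and protocol GE1_107_Sep09 in the file headers). The authors deposited scanner outputs with the intensity and background flags of each spot, and a table of log2 values normalized between arrays. The log2 values were analysed. Values of the 43379 spots that are not controls were averaged per probe (41012) and then per gene name (35469). Arrays were grouped by their labels, and no table column lacked a sample.

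Scanner outputs supplied gene names, probe sequences, background flags, slide and scan session. Each was given the sample whose table column has its rank order (Spearman 1, and at most 0.9926 with any other column), which was another sample than the one it was deposited with for 16 of 28 arrays. A spot well above background was so marked by the scanner software. For arrays no depth applies, and 4 per group limit the precision. Nothing says that extractions were repeated, so the p-values rest on the spread between animals. In the time course this spread also holds that between slides and scan sessions. Each transplanted group lay on a slide of its own, so its arrays hold no spread between slides.

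Group means were estimated from all arrays in one limma 3.58.1 model (R 4.3.3, package data.table, version 1.17.8) and moderated with eBayes (2.26 prior degrees of freedom), and p-values were adjusted by Benjamini-Hochberg over all gene names. Called means an adjusted p under 0.05. "At least" folds set the brighter group's mean against, per array, the higher of the dim signal and the lowest signal well above background. The fit was tested on simulated data. Python 3.11.15, pandas 2.3.3 and matplotlib 3.10.9 served for sequences and figures.

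The members, role lists, pathway lists and marker lists were chosen with earlier results of these data known. By rule, values of single arrays (or their range) were given for TGF-beta ligands and receptors, for the 4 largest rises and falls at each time against T0, for the 3 largest in each transplantation comparison (called, measured in at least 1 group, without overlap), and for members called between successive times. Others were added after their values were seen, and some pathway genes that the rule selects are not reported here. T8 against T1 was added after values were known. Alternatives covered scaling, background correction, slide, scan session, replicate block, probes, dim or outlier spots, fit settings and single arrays left out. Of listed genes, 9 Wnt, 4 BMP or TGF-beta and 2 FGF pathway genes, and 3 marker genes, were not found by symbol on the array. Other marker lists covered astrocytes (1 of 6 rose and 3 fell at T1), oligodendrocytes (5 of 6 fell), endothelium (3 of 6 rose and 1 fell), ependyma (2 of 4 fell), T cells (5 of 5 rose) and skeletal muscle (2 of 6 rose and 2 fell). The skeletal muscle sum was 12.09 to 12.86 at T0, 10.19 to 10.58 at T1 and 10.33 to 10.73 at T8. At T1, 1 of its markers was below background on all arrays. The part of this shift in the changes against T0 was not tested.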

Additional observations from a re-analysis of the deposited data

Results flagged for a closer look

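In groups of 4 arrays, a single array far from the other 3 was looked for in every member and group measured well above background on all 4 arrays. Of 464 such sets 30 were marked, where chance marks about 1 in 20, or 23. T1_NPC replicate 2, the array that stands apart over all gene names, held 6 of the 30. There Bmpr1a read 8.51 (others 8.92 to 9.01), Fgfrl1 14.22 (15 to 15.04), Fzd2 8.29 (9.84 to 10.09), Fzd9 9.98 (8.59 to 8.80), Gdf11 8.40 (9.12 to 9.24) and Gdf6 7.11 (6.73 to 6.78). In the same group Tgfb3 read 10.82 on replicate 4 (11.08 to 11.13) and Wnt9a 5.24 on replicate 3 (5.39 to 5.42).

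Among T0 arrays, replicate 3 read 7.03 for Bmpr2 (others 7.91 to 8.05), 7.27 for Fgf2 (7.40 to 7.42) and 7.53 for Gdf10 (8.22 to 8.27). Replicate 2 read 5.04 for Fgf10 (5.47 to 5.54) and 4.44 for Sfrp4 (5.02 to 5.06), and replicate 1 read 10.54 for Dkk3 (10.31 to 10.34) and 7.27 for Fgf14 (7.03 to 7.06). Among T1 arrays, replicate 2 read 10.14 for Fzd2 (9.54 to 9.61), 6.41 for Gdf6 (6.59 to 6.61), 10.91 for Tgfbi (10.03 to 10.17) and 5.52 for Tgfbrap1 (6.07 to 6.12), and replicate 4 read 6.19 for Fgf1 (6.58 to 6.65).

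Among T2 arrays, Fgfr4 read 6.13 on replicate 4 (5.71 to 5.73) and Gdf10 7.84 on replicate 2 (9.55 to 9.90). Among T4 arrays, replicate 3 read 8.50 for Fgf2 (7.90 to 7.99), 9.45 for Tgfb1 (9.62 to 9.64) and 8.55 for Wnt6 (9.21 to 9.26), and replicate 1 read 9.52 for Wnt5b (9.93 to 10.00). Among T2_NPC arrays, replicate 3 read 11.43 for Bmp1 (11.85 to 11.88) and 9.12 for Bmpr1a (9.36 to 9.37), replicate 4 read 8.86 for Bmpr2 (8.57 to 8.60), and replicate 1 read 6.48 for Gdf9 (4.46 to 4.65).

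The limma test of the acute against the subacute transplantation effect called 1 member, Fgf20, where 0.299% of all gene names were called. The subacute effect minus the acute effect was -1.67 in the fit, a value without a measured level behind it, and the call was lost with normexp and with dim probes left out. Fgf20 read 2.95 to 3.75 on the T1_NPC arrays and 1.41 to 2.13 on all other arrays, and the spot was well above background on none of the 28.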

How the results depend on the processing

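Counts of called members against T0 held within 1.5 times under most settings. They were 0 at T1, T2, T4 and T8 when each scanner output kept its deposited sample, and so were T2 against T1, both transplantation comparisons, T1_NPC against T0, T8 against T1 and the difference between transplantation effects, while T2_NPC against T0 gave 4. Asking for a change of at least 2-fold left 29, 27, 29 and 33 members at T1, T2, T4 and T8, 1 in T2 against T1, 5 in T1_NPC against T1, 1 in T2_NPC against T2, 33 and 35 in T1_NPC and T2_NPC against T0, and 9 in T8 against T1. Scan session 1 alone called 28 members at T1, 0 in T2 against T1 and 4 in T8 against T1, and session 2 alone 1 in T2 against T1 and 2 in T4 against T2.

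T2 against T1 gave 8 members with the slide and 10 with the session as fixed blocks, 3 with the brightest probe per gene, and 0 with undisputed arrays alone or with compared groups only. T4 against T2 and T8 against T4 gave 1 and 1 with 75th percentile scaling, 3 and 3 with normexp, 2 and 4 with slide as a fixed block, 1 and 1 with slide as a random block, 2 and 4 with session as a fixed block, 1 and 1 with trend and robust, and 1 and 1 with dim probes left out. The matched scanner outputs, quantile normalized, gave 1 in T4 against T2. T1_NPC against T1 gave 19 with 75th percentile scaling (17 higher and 2 lower) and 4 with compared groups only. T2_NPC against T2 gave 2 with the slide as a random block, 11 with undisputed arrays alone and 10 of single probes. T8 against T1 gave 12 with undisputed arrays alone. The difference between transplantation effects gave 6 with 75th percentile scaling, and 0 with normexp or dim probes left out. The cause was not tested. Scaling to the 75th percentile moved the median of all gene names to -0.27 at T1, -0.16 at T4, 0.12 in T2 against T1, 0.15 in T8 against T1, 0.11 in T1_NPC against T1, -0.11 in T2_NPC against T0 and -0.14 in the difference between transplantation effects. Differences there are relative to those shifts.

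The labels' replicate numbers do not pair the animals: correlations of same-numbered arrays' deviations ran from -0.34 to 0.30. With the replicate block T2 against T1 gave 3 members. With single arrays left out, the counts ran from 43 to 49 at T1, 38 to 45 at T2, 41 to 49 at T4, 45 to 52 at T8, 1 to 4 in T2 against T1, 0 to 1 in T4 against T2 and in T8 against T4, 7 to 11 in T1_NPC against T1, 2 to 5 in T2_NPC against T2 (2 without T2 replicate 3 or T2_NPC replicate 2), 49 to 54 and 47 to 53 in T1_NPC and T2_NPC against T0, 15 to 19 in T8 against T1, and 1 to 2 in the difference between transplantation effects.

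Of 3580 differences of called members recomputed under alternatives that leave out no single array, 3357 kept direction and call, 219 kept direction only, and 4 reversed, all with the brightest probe: Wnt2 at T1 (-0.06) and T2 (-0.22), and Bmp2k in T2_NPC against T2 (0.00) and against T0 (0.04). The planned normexp on the mean signal was not run, since 8 of 28 scanner outputs hold it, and the median signal was used instead, a choice made after seeing the data.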
